A study of Mus musculus with 2 samples.

Results

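The mouse microRNA genes Mir214, Mir199b, Mir199a-2 and Mir199a-1 lie on the strand opposite to genes of the dynamin family, which encode GTPases that pinch vesicles from membranes. They were taken by gene symbol, and all 4 were found among the 2202 annotated microRNA genes of the count files. Small RNA was sequenced from gastrocnemius, a calf muscle, of 14-day-old female mice. The strain was B6CASTF1/J, the first generation of a cross between C57BL/6J and CAST/EiJ mice. The samples form 1 group of 2 biological replicates with no treatment, and the labels ask for RNA under 30 nt. The biosample of replicate 1 is named for 3 females and that of replicate 2 for a single female, and both carry the same donor identifier. It is not stated whether animals were pooled, so the spread between the replicates may be partly technical.

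MicroRNAs are cut from a hairpin-shaped part of a longer transcript, and either arm of the hairpin, named 5p or 3p, can become the mature strand. The mature strand pairs with messenger RNAs mainly through its seed, bases 2 to 8, and lowers their translation and stability. In mice Mir199a-2 and Mir214 are made from Dnm3os, a long noncoding transcript opposite to an intron of Dnm3, and loss of Dnm3os impairs growth and skeletal development. The Mir199 and Mir214 genes are known for expression in mesenchymal cells such as fibroblasts and chondrocyte precursors. In cultured mouse muscle cells miR-214 represses Ezh2, a Polycomb methyltransferase, during differentiation.

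Positions are those of mm10 with GENCODE release M21. Mir199a-2 (chr1:162217814-162217923, plus strand) and Mir214 (chr1:162223368-162223477, plus strand) are 110 nt long each and are separated by 5444 bases. They begin 191 and 5745 nt after the annotated start of Dnm3os, whose gene spans 7928 nt. Each hairpin lies whole within an exon of 2 Dnm3os transcripts and opposite to an intron of Dnm3. Counting partial overlap as well, exons of 5 Dnm3os transcripts reach Mir199a-2 and exons of 3 reach Mir214. Mir199b (chr2:32318460-32318569, plus strand, 110 nt) lies opposite to an intron of Dnm1, and Mir199a-1 (chr9:21496495-21496564, minus strand, 70 nt) opposite to an intron of Dnm2. No exon of the 3 dynamin genes overlaps a hairpin. The annotated hairpin of Mir199a-1 is shorter than the other hairpins and holds little more than its arms.

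**Figure D1:**
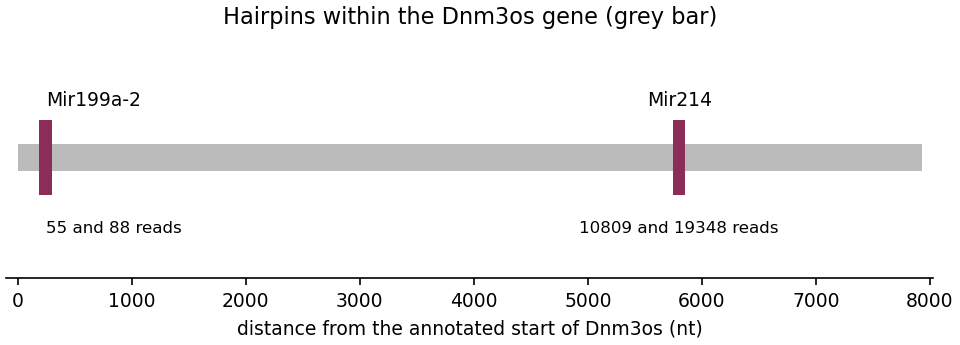
Map of the Dnm3os gene (grey bar), with distance from its annotated start in nt on the horizontal axis and the hairpins of Mir199a-2 and Mir214 drawn to scale. Below each hairpin stand its same-strand reads in replicates 1 and 2, which number 55 and 88 for Mir199a-2 and 10809 and 19348 for Mir214.

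The hairpins are shown because their sequences bear on which reads could be counted. They are RefSeq sequences on GRCm38.p6, matched for all 4 genes and identical to the GENCODE M21 transcripts, with the mature arms that RefSeq lists in capitals.
Mir214: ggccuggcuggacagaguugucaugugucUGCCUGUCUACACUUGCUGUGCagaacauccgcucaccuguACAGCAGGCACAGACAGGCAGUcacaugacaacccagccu
Mir199b: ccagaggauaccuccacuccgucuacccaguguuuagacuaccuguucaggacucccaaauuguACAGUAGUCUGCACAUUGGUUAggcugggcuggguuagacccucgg
Mir199a-2: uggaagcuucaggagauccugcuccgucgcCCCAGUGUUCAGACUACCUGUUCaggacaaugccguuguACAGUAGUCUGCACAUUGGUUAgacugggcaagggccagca
Mir199a-1: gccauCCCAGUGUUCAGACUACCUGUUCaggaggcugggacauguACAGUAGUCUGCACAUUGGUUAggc

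The mature arms fall into 4 seed groups, and the seed is in capitals here.
mmu-miR-199a-3p and mmu-miR-199b-3p: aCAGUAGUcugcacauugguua
mmu-miR-199a-5p: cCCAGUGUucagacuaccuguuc
mmu-miR-214-3p: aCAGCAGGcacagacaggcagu
mmu-miR-214-5p: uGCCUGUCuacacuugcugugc
The 3p arm of the Mir199 genes has a single sequence, which occurs in 3 annotated hairpins, those of Mir199a-1, Mir199a-2 and Mir199b. The sequence of miR-199a-5p occurs in 2 hairpins, those of Mir199a-1 and Mir199a-2. Each arm of Mir214 occurs in its own hairpin alone among the annotated hairpins.

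The 5′ side of Mir199b is close to miR-199a-5p without being identical. The best ungapped match of miR-199a-5p in the Mir199b hairpin is the following stretch of 23 nt at positions 26 to 48, in which the base that differs is in capitals.
Mir199b, positions 26 to 48: cccaguguuUagacuaccuguuc
Counted from the 5′ end of miR-199a-5p, the difference is C10U, outside the seed. This stretch occurs in 1 annotated hairpin, its own. Mir199a-1 and Mir199a-2 share 27 nt across the 5p arm (cccaguguucagacuaccuguucagga) and 26 nt across the 3p arm. Mir199b shares 28 nt of its 3p side with Mir199a-1 (uguacaguagucugcacauugguuaggc) and 27 nt with Mir199a-2. Mir214 shares at most 9 nt with any of the Mir199 hairpins on either strand.

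The deposited values are read counts per gene, and reads that fit several places in the genome appear only in a separate total that names no gene. Every 22-nt window of each hairpin was therefore looked for in all annotated microRNA hairpins, on both strands. Of the windows of Mir214, 100% occurred in no other hairpin, against 91.0% for Mir199b, 86.5% for Mir199a-2 and 73.5% for Mir199a-1. The shared windows lay on the arms. Of the 5 windows that begin within 2 nt of the start of an arm, all 5 occurred in no other hairpin for each arm of Mir214 and for the 5′ stretch of Mir199b. For Mir199a-2 this held for 2 of 5 at the 5p arm and 1 of 5 at the 3p arm, and for Mir199a-1 for 2 of 5 and 0 of 5. At the 3p arm of Mir199b it held for 0 of 5. Counts of the Mir199 genes are lower bounds for this reason, while neither arm of Mir214 matched another annotated hairpin. The rest of the genome was not searched. The counts pool the arms of a hairpin, so 5p and 3p reads were not separated.

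**Figure D2:**
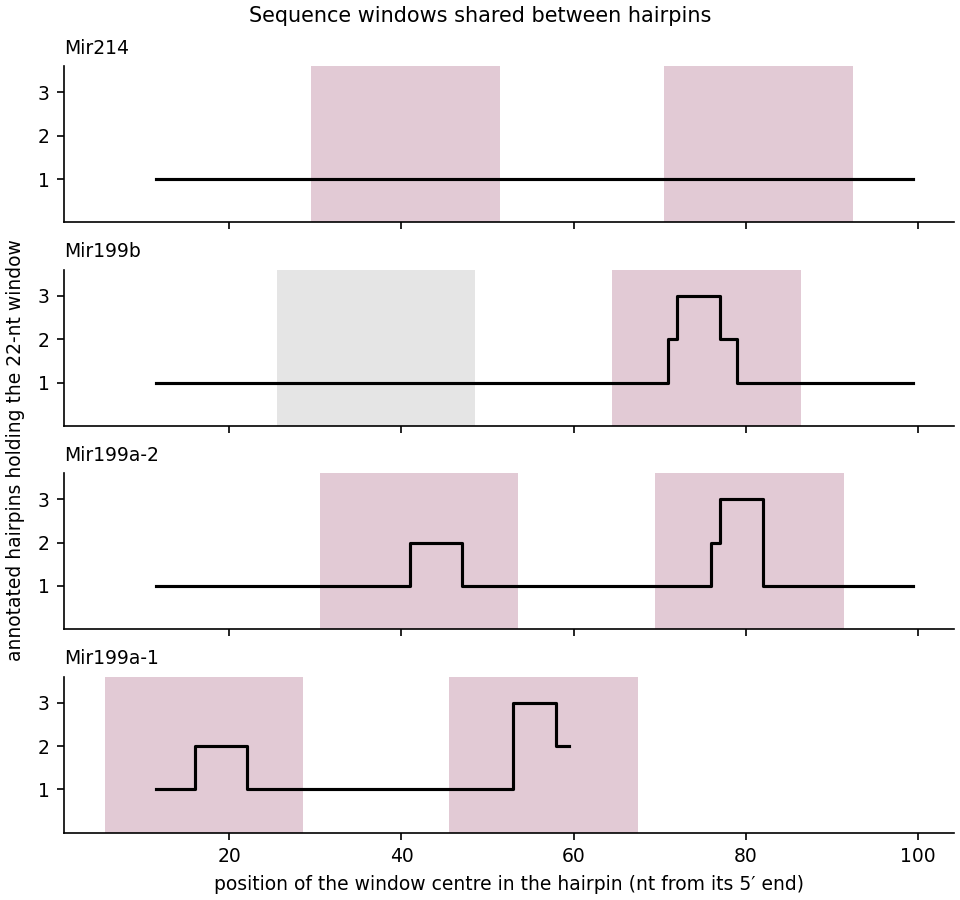
Number of annotated microRNA hairpins that hold each 22-nt window (vertical axis) against the position of the window's centre in nt from the 5′ end of the hairpin, for each of the 4 genes. Red bands mark the mature arms listed by RefSeq and the grey band marks the Mir199b stretch that matches miR-199a-5p; the line stays at 1 throughout Mir214 and reaches 3 over the 3p arm of the Mir199 genes.

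Levels are given as CPM, the same-strand count of a gene scaled so that the gene counts of each library sum to 1000000. These totals were 2672454 reads in replicate 1 and 4292012 in replicate 2, so a read was worth 0.374 CPM and 0.233 CPM. Multiply aligned reads, which no gene received, were 52.7% of replicate 1 and 52.4% of replicate 2. Striated muscle microRNAs were looked at beside the tissue label. Of the 9 listed genes, 8 reached 1 CPM in both replicates, against 16.7% of all 2202 genes. So did all 6 listed leukocyte, 2 erythroid and 1 hepatocyte genes, 4 of 5 endothelial genes and 5 of 11 neural genes. This count therefore cannot tell muscle from other tissue. In the muscle list Mir206 led at 89900 ± 7361 CPM (SD, n = 2), and the other means ran from 1.42 CPM (Mir133a-2) to 591 CPM (Mir486).

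By assigned reads, Mir214 was the highest of the dynamin-antisense genes, among which the Mir199 counts are lower bounds. It had 10809 reads (4045 CPM) in replicate 1 and 19348 reads (4508 CPM) in replicate 2, and the exact 95% binomial intervals were 3969 to 4121 CPM and 4445 to 4572 CPM. Its mean of 4276 ± 328 CPM (SD, n = 2) placed it 38th of the 2202 genes. The intervals and all others given here cover counting error only.

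Mir199b, whose 5p strand is raised in failing mouse heart and represses the kinase gene Dyrk1a there, was the second by mean level. It had 44 reads (16.5 CPM, interval 12.0 to 22.1) in replicate 1 and 129 reads (30.1 CPM, interval 25.1 to 35.7) in replicate 2. The mean of 23.3 ± 9.61 CPM (SD, n = 2) ranked 230th. The value of replicate 2 lay above the interval of replicate 1.

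Mir199a-2, the partner of Mir214 within Dnm3os, had 55 reads (20.6 CPM, interval 15.5 to 26.8) in replicate 1 and 88 reads (20.5 CPM, interval 16.4 to 25.3) in replicate 2. Its mean was 20.5 ± 0.0545 CPM (SD, n = 2), 235th in rank, and the value of each library lay within the interval of the other. Mir199a-1 had 0 reads in both libraries. With a limit of 3 reads this allows up to 1.12 CPM of assigned reads in replicate 1 and 0.699 CPM in replicate 2. This is no limit on the microRNA itself, as multiply aligned reads were not counted. The arms of Mir199a-1 are those of Mir199a-2, so a count of 0 says only that no read was assigned to this copy. In the order of assigned reads Mir214 stood apart in both libraries, although multiply aligned reads could change this order. Mir199b lay below Mir199a-2 in replicate 1 and above it in replicate 2, so those neighbours in the order did not differ beyond their spread. How far the shared sequence accounts for the low Mir199 counts was not tested.

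**Figure D3:**
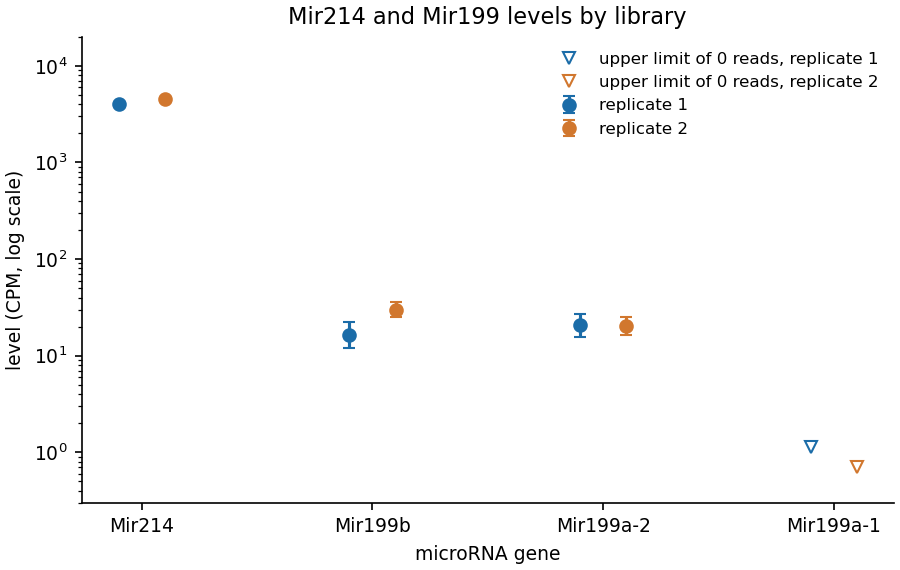
Level in CPM on a log scale for each gene, with replicate 1 in blue and replicate 2 in orange and bars for the exact 95% binomial interval (smaller than the symbol for Mir214). Mir214 lies at 4045 and 4508 CPM, and Mir199b and Mir199a-2 lie between 16.5 and 30.1 CPM. Open triangles give the upper limits of 1.12 and 0.699 CPM for assigned reads of Mir199a-1, which had 0 reads.

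At 1 CPM or more in both replicates, 3 of the 4 genes counted as expressed, while 16.7% of all 2202 genes did. Mir199a-1 was among the 70.0% of genes with 0 reads in both libraries. Mir214 held 99.1% of the reads of the 4 genes in replicate 1 (exact 95% binomial interval 98.9 to 99.3) and 98.9% in replicate 2 (98.7 to 99.0). The Mir199 genes together had 37.0 and 50.6 CPM, 43.8 ± 9.56 CPM on average (SD, n = 2), again a lower bound.

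Within Dnm3os the assigned reads were very unequal between the hairpins. Mir214 had 197 times the reads of Mir199a-2 in replicate 1 (95% counting interval 151 to 261) and 220 times in replicate 2 (178 to 274), a mean of 208 ± 16.5 (SD, n = 2). The intervals of the libraries overlapped. Mir214 had 246 times the reads of Mir199b in replicate 1 (183 to 338) and 150 times in replicate 2 (126 to 180), and these intervals did not overlap. Mir199b had 0.800 times the reads of Mir199a-2 in replicate 1 (0.526 to 1.21) and 1.47 times in replicate 2 (1.11 to 1.94). Since each Mir199 count is a lower bound, these ratios hold for assigned reads alone, and neither the size nor the direction of the difference between the microRNAs themselves follows from them.

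Reads on the other strand were near 0, as were those of other microRNA genes in the dynamin loci. The strand opposite to Mir214 had 2 reads in replicate 1 and 1 read in replicate 2, and that of each Mir199 gene had 0. In GENCODE M21 the dynamin genes hold 1 further microRNA gene, Gm23363 (chr2:32318265-32318343), 116 bases before Mir199b on its strand. It had 0 reads in both libraries.

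Seed sharing with genes elsewhere was also followed. Among RefSeq mature sequences the seed of miR-214-3p occurs in 1 gene besides Mir214, Mir761 on chromosome 4, whose mature sequence is shown for comparison with miR-214-3p above.
mmu-miR-761: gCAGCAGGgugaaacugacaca
Mir761 had 1 read (0.374 CPM) in replicate 1 and 0 reads in replicate 2, so nearly all reads assigned to this pair of genes were those of Mir214. The Mir214 count pools its arms, so how many of its reads carry this seed is not known. The seeds of miR-199a-3p, miR-199a-5p and miR-214-5p occurred in no RefSeq mature sequence of a gene outside the Mir199 and Mir214 genes.

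The Mir199 genes were set beside other genes whose arms are shared. RefSeq listed mature arms for 1018 of the counted genes. In 37 of these, Mir199a-1, Mir199a-2 and Mir199b among them, every listed arm was identical to an arm of another gene. Of the 37 genes, 6 (16.2%) were expressed and 30 had 0 reads in both libraries. Mir199b was the second and Mir199a-2 the third highest of the 37, behind Mirlet7c-2, a let-7 gene, at 509 CPM. The median over the 6 expressed genes, Mir199b and Mir199a-2 included, was 14.5 CPM, so it depends in part on the Mir199 genes themselves. In the 57 genes that shared some of their listed arms, 39 (68.4%) were expressed with a median of 44.7 CPM. In the 924 genes that shared none, Mir214 among them, 287 (31.1%) were expressed with a median of 115 CPM, and 34 of the 924 were above Mir214. The RefSeq entry of Mir199b lists the 3p arm alone, so that gene was classed by it.

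The genes next to Mir214 in level were Mir21a, a microRNA raised in fibrosis (4512 ± 376 CPM), Mir27b (4341 ± 509 CPM), Mir483, in an intron of Igf2 (4149 ± 397 CPM), and Mir125a (3848 ± 42.5 CPM; all SD, n = 2). Mir21a and Mir27b were above Mir214 in replicate 1, at 4778 and 4701 CPM, and below it in replicate 2, at 4246 and 3981 CPM. Mir483 was below Mir214 in each library, at 3868 and 4429 CPM, but its range overlapped that of Mir214, while both values of Mir125a, 3818 and 3878 CPM, lay below them. Mir199b stood between Mir1198 (23.5 ± 0.400 CPM) and Mir92b (22.7 ± 6.74 CPM; SD, n = 2), with Mir192 and Mir32 next, and the values of each of these genes overlapped the range of Mir199b.

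Between the libraries Mir214 differed little. Replicate 2 over replicate 1 gave a ratio of 1.11 (95% counting interval 1.09 to 1.14). In the 176 genes with mean levels of at least 100 CPM, the typical (median) difference in either direction was 1.12-fold, and 97 were as far apart as Mir214 or farther. The interval lay above 1 for Mir214 as for 39.2% of these genes, and below 1 for 34.7%. Mir199a-2 had a ratio of 0.996 (0.703 to 1.42). Such ratios set 1 library against another and have no replicate check.

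Mir199b was farther apart. Its ratio was 1.83 (1.29 to 2.63), or 0.87 on the log2 scale. In the 84 genes with mean levels of 10 to 100 CPM the median difference was 1.18-fold, and 10 of the 84, Mir199b included, were at least as far apart as Mir199b. The counting interval lay above 1 for 20.2% of these genes and below 1 for 7.14%. The summed Mir199 reads had a ratio of 1.36 (1.07 to 1.75), while that of Mir199a-2 alone was near 1.

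**Figure D4:**
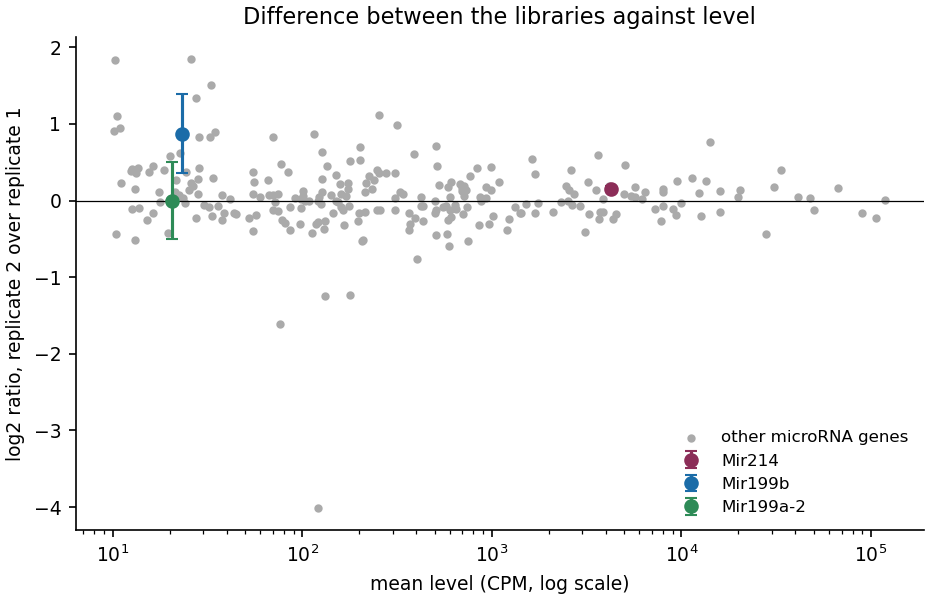
Log2 ratio of replicate 2 over replicate 1 against mean level in CPM (log scale) for genes that averaged at least 10 CPM, with the 95% counting interval for the named genes (smaller than the symbol for Mir214). Mir214 at 0.16 and Mir199a-2 at -0.01 lie within the cloud of other genes. Mir199b at 0.87 lies in its upper part, below other genes that reach 1.84 (Mir183).

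Among genes that averaged at least 100 CPM, the 5 whose log2 ratio between the libraries was nearest to the 0.16 of Mir214 were Mir412, Mir455, Mir127, Mir434 and Mir503. Their log2 ratios ran from 0.14 (Mir503) to 0.17 (Mir127), and 43 genes lay within 0.1 of Mir214. Likeness over 2 libraries is a single number per gene, so this order separates genes poorly.

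Other mesenchymal microRNAs gave the setting for Mir214. All 9 genes of a list of fibroblast and smooth muscle microRNAs were expressed, while 16.7% of all 2202 genes were. The summed level of the 9 came to 33733 CPM for replicate 1 and 34492 CPM for replicate 2. Mir143, which acts in smooth muscle, led at 19812 ± 483 CPM, ahead of Mir10b (7959 ± 443 CPM) and Mir21a (SD, n = 2), and 3 of the 9 were therefore above Mir214. The lowest were the copies Mir29b-1 (9.25 ± 3.85 CPM) and Mir29b-2 (4.46 ± 0.0448 CPM; SD, n = 2). Of the 7 list genes that averaged at least 10 CPM, 3 had a ratio above 1 and 4 below 1, and their median log2 ratio was -0.07, against 0.04 over all 260 such genes. Mir214 thus lay above this median, as did Mir143 (0.05), Mir10b (0.11) and Mir152 (0.20).

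Of the lists for other cell types, some differed between the same libraries more than others. Erythroid genes summed to 437 CPM in replicate 1 and 185 CPM in replicate 2 (median log2 ratio -1.24, 2 genes), and Mir122 of hepatocytes had 229 and 14.2 CPM. Leukocyte genes summed to 2729 and 2220 CPM (median -0.38, 6 genes), and endothelial genes to 121538 and 121966 CPM (median -0.02, 4 genes). Muscle fibre genes summed to 96325 and 85876 CPM (median 0.06, 6 genes). Neural genes summed to 2004 and 1860 CPM with a median of 0.83 over 5 genes, which turned to -0.23 over those that averaged at least 100 CPM. Most of the endothelial sum was Mir126a (118724 and 119268 CPM) and most of the muscle fibre sum was Mir206 (95104.7 and 84694.5 CPM). Mir128-1 (1503 and 1345 CPM) made up most of the neural sum. These sums thus mainly follow a single gene each, while the medians weigh all genes alike. Of the 11 neural genes listed, 5, the Mir124a genes among them, had 0 reads in both libraries, as did 70.0% of all 2202 genes. Multiply aligned reads are missing from the counts and sums of all lists, so 0 assigned reads do not show that a microRNA was absent. The part of these cell types in the ratios of Mir214 and Mir199b was not tested. In RNA of whole muscle, fewer cells of a type and less RNA per cell cannot be told apart, and nothing here shows which cells held Mir214.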

How the data were processed

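The authors deposited raw read counts per microRNA gene for each library, made on mm10 with GENCODE M21 per the file headers deposited beside them. Which aligner and counting tool made them is not stated in the sources used here. Each file has 3 count columns, read from their order as unstranded, same-strand and opposite-strand, and the same-strand column was used. The 4 lines that name no gene held 66.6% and 64.6% of reads and stayed out of totals. All 2202 identifiers matched GENCODE M21.

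Ratios of counts have exact conditional binomial intervals, and no test between groups was possible in 1 group of 2 samples. The interval code was checked on simulated data. No genome sequence was used, so windows were searched in annotated hairpins and, as an alternative added later, in all GENCODE M21 transcripts. Named were the 4 genes, their neighbours in level and in replicate ratio, seed partners, microRNA genes in the same loci and leading genes of the mesenchymal list. Genes and lists were chosen with earlier results of these data known. Tools were Python 3.11.15, pandas 2.3.3, scipy 1.17.1, Biopython 1.88, and edgeR 4.0.16 (TMM) and DESeq2 1.42.0 (size factors) in R 4.3.3 for alternative scalings.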

Additional observations from a re-analysis of the deposited data

How the results depend on the processing

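Of 93 alternative values, 81 stayed within the spread or interval of the main value or, for gene counts and window shares, within 1.5 times of it, 11 moved and 1 reversed. Part of the 81 was fixed in advance and says nothing of stability. For levels, ratios between genes and seed sums, a value from 1 replicate always lies within the SD (n = 2) of the mean. The level of Mir199a-1 stays at 0 CPM under any denominator. The number of expressed genes stayed at 3 of 4 at 0.5 and 10 CPM, at 1 CPM in either replicate, with unstranded counts and in each replicate alone. The denominator set the level. Over all reads of the file, Mir214, Mir199b and Mir199a-2 stood at 1473, 8.06 and 7.06 CPM, and without the 10 most abundant genes at 11061, 59.9 and 53.2 CPM. With unstranded counts Mir214 stood at 5751 and Mir199a-2 at 27.6 CPM, on gene totals of 1963516 and 3227243 reads, with 708973 and 1064808 reads ambiguous between genes in that column and 0 in the same-strand column. The replicate ratio of Mir214 was 1.18 over all reads and 1.07 without the 10 most abundant genes, and that of Mir199b was 1.79 with TMM and 1.80 with DESeq2 size factors. TMM and DESeq2 factors shifted all log2 ratios by -0.03 and -0.02. At a mean of 100 CPM or more, the muscle fibre median moved to -0.17 and the neural median reversed to -0.23, since fewer genes entered. Each replicate alone gave 16.5 to 30.1 CPM for Mir199b and 150 to 246 for Mir214 over Mir199b. With windows of 18 and 24 nt the share found in no other hairpin was 60.4% and 80.9% for Mir199a-1, 77.4% and 90.8% for Mir199a-2, 86.0% and 93.1% for Mir199b and 100% for Mir214 at both lengths. Windows searched in all transcripts, chosen after seeing the data, gave the same shares, and a search against the genome was not run. No paired analysis was possible because there is 1 group. Reads of the Mir199 genes, 44 to 129 per library and gene where any were found, limit their precision.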
